A study of Sus scrofa with 10 samples.

Results

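The FOS, JUN and EGR genes are immediate early transcription factors, whose transcripts appear within minutes of a stimulus and mostly decay soon after. Of 10 such genes looked for by gene symbol in the array's probe-to-gene table, 7 had a row among 13755 named genes. These were FOS, FOSB, JUN, JUNB, JUND, EGR2 and EGR3, over 9 probe sets. FOSL1, FOSL2 and EGR1 were not analysed here. JUN and EGR3 each had 2 probe sets, and the one with the highest mean over all 10 arrays was taken as the main one.

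RNA of alveolar macrophages, which take up particles and microbes in the air spaces of the lung, was measured on 10 Affymetrix Snowball pig arrays from 5 Hampshire pigs, with 1 array of each cell group per pig. The non-adherent group (n = 5) held cells that had not attached after thawing and overnight culture with recombinant human CSF-1, sorted for high size and granularity. The adherent group (n = 5) held attached cells of the same pigs, for which no sort was stated. All samples carried the labels untreated and 0 h, but the treatment protocol given with the adherent samples mentions lipopolysaccharide from Salmonella. The adherent arrays come from an older series, so effects of attachment, of the sort and of the array series cannot be told apart. Values are log2 values per probe set, and differences are non-adherent minus adherent with the standard error (SE) of the limma fit.

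FOS and JUN proteins pair through leucine zippers to form AP-1, which binds DNA at promoters and enhancers of genes for cytokines, proteases and cell growth. JUN proteins can pair with each other or with FOS proteins, whereas FOS proteins need a partner such as JUN. EGR proteins bind GC-rich elements through zinc fingers, and in macrophages they are known for early responses to growth factors and microbial products. Many immediate early genes are switched on by MAP kinases through serum response factor and its ETS partners.

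The array of adherent animal 1 stood apart from the rest over all 47845 probe sets. It correlated with the other 9 arrays at 0.952 to 0.962, whereas all other pairs of arrays correlated at 0.966 to 0.991. Its median of 5.02 lay within the range of the other arrays, 4.97 to 5.09. The 14 bacterial control probe sets for the bio genes averaged 7.03 to 7.23 on non-adherent arrays and 6.16 to 6.31 on adherent arrays, with 6.31 on adherent 1. The alveolar macrophage labels were checked against 16 measured markers, whose mean log2 value was 9.24 to 9.57 on non-adherent arrays, 9.47 on adherent 1 and 8.82 to 9.21 on the other 4 adherent arrays. At an adjusted p of 0.05 in limma, CD163 and MSR1 were higher in non-adherent cells and PPARG and TLR4 lower. Over all genes 6.72% were higher and 9.78% lower. Among the 16 markers CHIT1 (5.01) was high and MERTK low on adherent 1. Their distance from the next adherent array was over 0.71 of the range of the adherent group (Dixon's critical value). By this value 4.05% of all genes were high and 3.91% low on adherent 1. CD163 (11.28 there, 8.38 to 9.24 on the other adherent arrays) fell just short at 0.705, as did MSR1 (10.46, against 8.84 to 9.32) at 0.704. The results are therefore given with and without adherent 1.

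The immediate early factors separated into 3 patterns. FOS, FOSB and EGR2 had overlapping ranges in both groups on the arrays other than adherent 1. They were high on adherent 1, as JUN and JUNB also were. JUN, JUNB and JUND, by their main probe sets, were lower on every non-adherent array than on any adherent array. EGR3 was higher in non-adherent cells in 4 of 5 animals. With all arrays, 1 of the 7 genes passed an adjusted p of 0.05 with lower expression in non-adherent cells and 0 with higher expression, where 9.78% and 6.72% of all genes did so. At an unadjusted p of 0.05 in the limma fit these counts were 2 lower and 0 higher, where 16.9% and 14.6% of all genes were. With the animal as a replicate block, 2 were lower and 0 higher, where 10.4% and 7.85% of all genes were. Without adherent 1, 3 of 7 were lower and 1 higher, where 13% and 9.34% of all genes were. The median log2 difference of the 7 genes was -0.74 with all arrays and 0.047 without adherent 1, against 0.0076 and 0.0063 for all genes. In bulk RNA, fewer cells expressing a gene and less RNA per cell cannot be told apart.

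**Figure D1:**
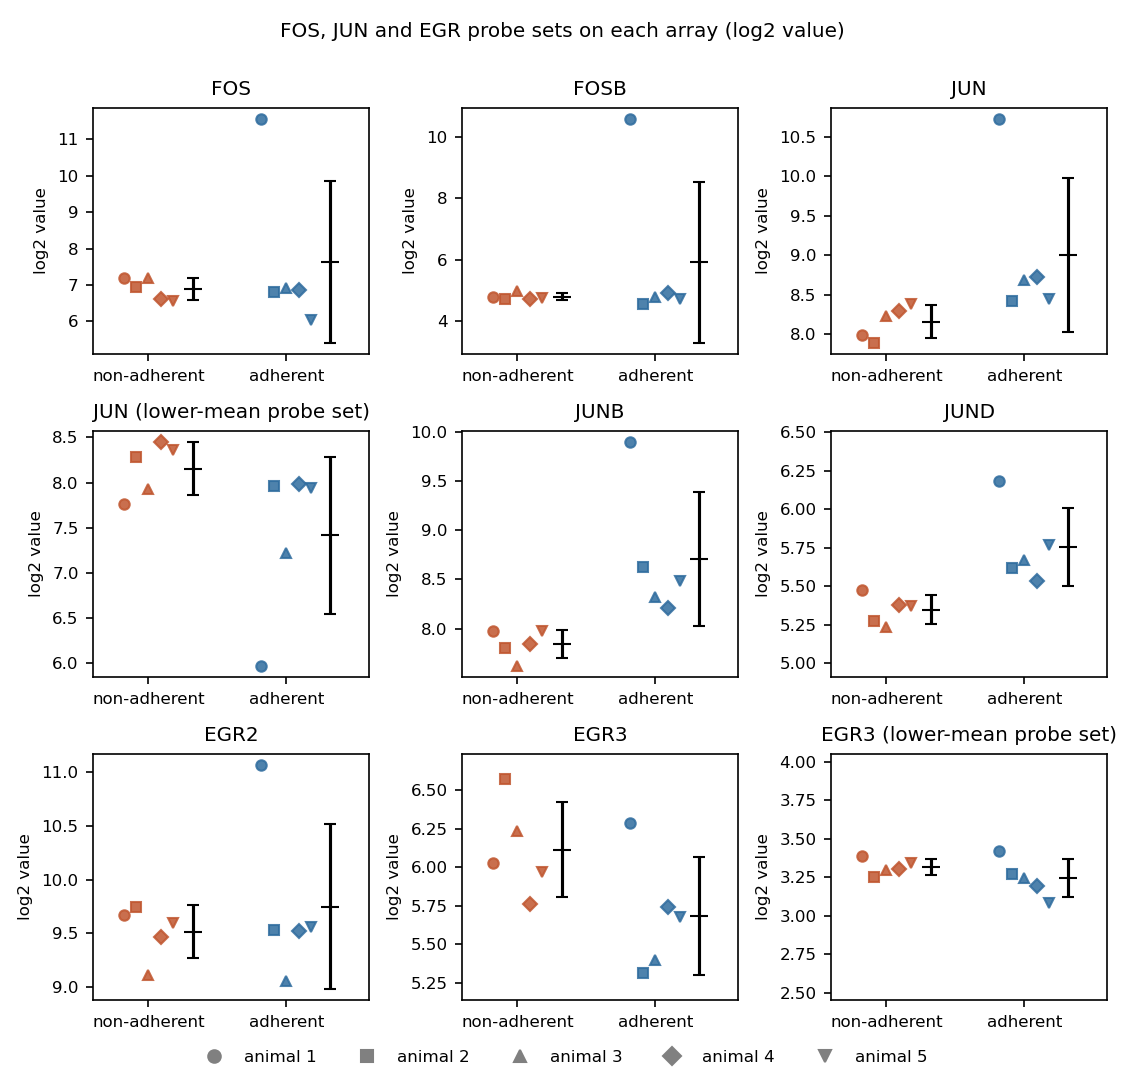
Log2 value of each of the 9 FOS, JUN and EGR probe sets (y axis, scaled per panel) on non-adherent and adherent arrays (x axis), with 1 symbol per animal, and bars for mean and SD (n = 5 each). The circle of adherent animal 1 is far above the other adherent arrays for FOS, FOSB, JUN, JUNB and EGR2, and far below them for the lower-mean JUN probe set.

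FOS, the prototype AP-1 subunit, had log2 values of 7.19, 6.95, 7.19, 6.61 and 6.56 on non-adherent arrays 1 to 5, against 11.57, 6.80, 6.91, 6.87 and 6.04 on adherent arrays 1 to 5. The groups overlapped, since adherent 2, 3 and 4 lay within the non-adherent range, adherent 5 below it and adherent 1 far above it. Adherent 1 exceeded the highest of the other 9 arrays by 4.38, a 20.8-fold distance. Among all 13755 genes this distance of FOS ranked as number 2. FOS averaged 6.90 ± 0.30 in non-adherent cells and 7.64 ± 2.23 in adherent cells (SD, n = 5 each). Its log2 difference of -0.74 ± 0.86 did not pass (adjusted p = 0.598). Without adherent 1 the sign turned, at 0.24 ± 0.20 with a 95% interval of -0.20 to 0.69 (adjusted p = 0.426).

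FOSB, a close relative that shares the FOS zipper and, in its full-length form, activates transcription, had the largest distance of all genes. Its log2 values were 4.78, 4.71, 4.98, 4.71 and 4.77 on non-adherent arrays 1 to 5. On adherent arrays 1 to 5 they were 10.59, 4.56, 4.77, 4.90 and 4.73. Adherent 1 lay 5.61 above the highest other array, a 49.0-fold distance that ranked as number 1 of 13755. The other 9 values all lay below 5.02, the median of all values on the arrays. The log2 difference of FOSB was -1.12 ± 1.00 with all arrays (adjusted p = 0.482). Without adherent 1 it was 0.047 ± 0.096, with a 95% interval of -0.16 to 0.26 (adjusted p = 0.768).

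JUN, the main FOS partner, had log2 values of 7.99, 7.89, 8.23, 8.29 and 8.39 on non-adherent arrays 1 to 5, against 10.72, 8.42, 8.69, 8.72 and 8.44 on adherent arrays 1 to 5. The groups did not overlap, although non-adherent 5 and adherent 2 were close. Adherent 1 lay 2.00 above the highest other array. The log2 difference of JUN was -0.84 ± 0.38 (adjusted p = 0.16), lower in non-adherent cells in 5 of 5 animals. Without adherent 1 the difference was smaller but more precise and passed, with JUN lower in non-adherent cells by -0.41 ± 0.12 (adjusted p = 0.0341). It did not pass without both arrays of animal 1 (-0.37, adjusted p = 0.074).

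JUNB, an AP-1 subunit that can temper JUN activity, had log2 values of 7.97, 7.81, 7.62, 7.85 and 7.98 on non-adherent arrays 1 to 5. On adherent arrays 1 to 5 it had 9.90, 8.63, 8.32, 8.21 and 8.48. The lowest adherent array stood above the highest non-adherent array. The log2 difference was -0.86 ± 0.27 and narrowly missed the threshold (adjusted p = 0.0534). With the animal as a replicate block JUNB passed (adjusted p = 0.0325), and without adherent 1 it was lower by -0.56 ± 0.11 (adjusted p = 0.0047). Leaving out adherent 4 (adjusted p = 0.0444) or both arrays of animal 1 (0.0073) also gave a call. Centred arrays (0.0457), array weights (0.0161), a random animal effect (0.032) and the filter on low levels (0.0444) did so as well. JUNB did not pass in 12 of the 15 leave-outs. These were 8 of 10 single arrays (highest adjusted p 0.111) and 4 of 5 animals (highest 0.133). It also did not pass in 3 of the 9 other settings (highest adjusted p 0.0745).

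JUND, the subunit that most cells express without a stimulus, was the 1 gene that passed with all arrays in the fit over named genes. It had log2 values of 5.48, 5.27, 5.24, 5.38 and 5.37 on non-adherent arrays 1 to 5, against 6.18, 5.62, 5.67, 5.53 and 5.77 on adherent arrays 1 to 5. The non-adherent values, 5.24 to 5.48, lay only a little above 5.02, the median of all values on the arrays. The call of JUND thus rests on a small difference near that median. JUND fell by 0.41 ± 0.12 in non-adherent cells (adjusted p = 0.0414), and its groups did not overlap. The call was lost when any of 7 single arrays was left out, namely all 5 non-adherent arrays and adherent 3 and 5 (highest adjusted p 0.0908). It was also lost without animal 2, 3, 4 or 5 (highest adjusted p 0.129). In the limma fit over all probe sets the same JUND probe set did not pass with all arrays (adjusted p = 0.0514). Without adherent 1 JUND passed at -0.30 ± 0.086 (adjusted p = 0.029).

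All 3 JUN family genes thus had non-overlapping groups with lower values in non-adherent cells, which 8.63% of all genes had. Of the FOS and EGR genes 0 did, and 0 of the 7 genes had non-overlapping groups with higher values in non-adherent cells, which 6.35% of all genes had.

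The lower-mean probe set of JUN ran the other way. Its log2 values were 7.76, 8.28, 7.93, 8.45 and 8.36 on non-adherent arrays 1 to 5, against 5.97, 7.96, 7.22, 7.99 and 7.94 on adherent arrays 1 to 5. Adherent 1 was the lowest array here and the highest with the main probe set. The difference was 0.74 ± 0.36, higher in non-adherent cells in 5 of 5 animals, and did not pass in the fit over all probe sets (adjusted p = 0.216, and 0.231 without adherent 1). In that fit 4.73% of probe sets were higher and 6.04% lower. Averaging both JUN probe sets gave a difference of -0.051 (adjusted p = 0.804), so the size and sign for JUN depend on the probe set read. What part of the transcript each probe set covers was not analysed here. JUNB and JUND had 1 probe set each.

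EGR2, a zinc finger factor that also takes part in myeloid differentiation, had log2 values of 9.67, 9.74, 9.12, 9.46 and 9.60 on non-adherent arrays 1 to 5. On adherent arrays 1 to 5 it had 11.07, 9.53, 9.06, 9.53 and 9.56. Apart from adherent 1, which lay 1.32 above all others, the groups covered nearly the same range, and animal 3 was the lowest in both. The log2 difference of EGR2 was -0.23 ± 0.31 (adjusted p = 0.655). Without adherent 1 it was 0.097 ± 0.15, with a 95% interval of -0.23 to 0.42 (adjusted p = 0.685).

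EGR3, a related factor known for its part in lymphocyte activation, had log2 values of 6.03, 6.58, 6.23, 5.76 and 5.97 on non-adherent arrays 1 to 5, against 6.29, 5.31, 5.40, 5.74 and 5.67 on adherent arrays 1 to 5. It was the gene whose value on adherent 1 was not the highest, lying 0.29 below that of non-adherent 2, so the groups overlapped only through adherent 1. The log2 difference was 0.43 ± 0.20 and did not pass (adjusted p = 0.16), nor did it on averaging its probe sets (0.25, adjusted p = 0.164). Without adherent 1 EGR3 was higher in non-adherent cells by 0.58 ± 0.16 and passed (adjusted p = 0.0243), as it did with array weights (0.0368) and without both arrays of animal 1 (0.0393). The lower-mean probe set of EGR3 stayed between 3.08 and 3.42 on all arrays, with a difference of 0.074 ± 0.077 (adjusted p = 0.59 over all probe sets).

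**Figure D2:**
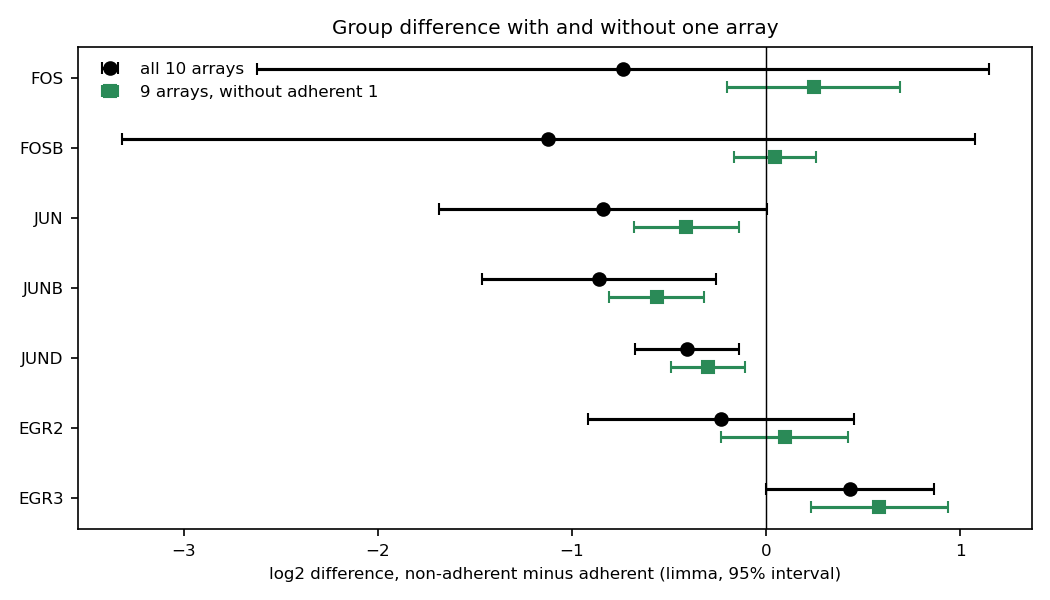
Log2 difference, non-adherent minus adherent (x axis), of each gene (y axis) with its 95% interval from limma, with all 10 arrays (black circles) and without adherent 1 (green squares). Without that array the intervals narrow, those of JUN, JUNB and JUND lie below 0, that of EGR3 lies above 0, and those of FOS, FOSB and EGR2 cross 0.

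Within animals the same split was seen. In animal 1 the log2 difference was -4.38 for FOS, -5.81 for FOSB, -2.73 for JUN, -1.93 for JUNB, -0.71 for JUND and -1.40 for EGR2. In animals 2 to 5 the differences of FOS were 0.15, 0.28, -0.26 and 0.52, and those of FOSB 0.15, 0.21, -0.19 and 0.036. These values had both signs. Those of JUNB in animals 2 to 5 were -0.82, -0.70, -0.36 and -0.50, and those of JUND -0.34, -0.43, -0.15 and -0.40. EGR3 differed by -0.26 in animal 1 and by 1.27, 0.84, 0.023 and 0.30 in animals 2 to 5, with the largest values in animals 2 and 3.

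**Figure D3:**
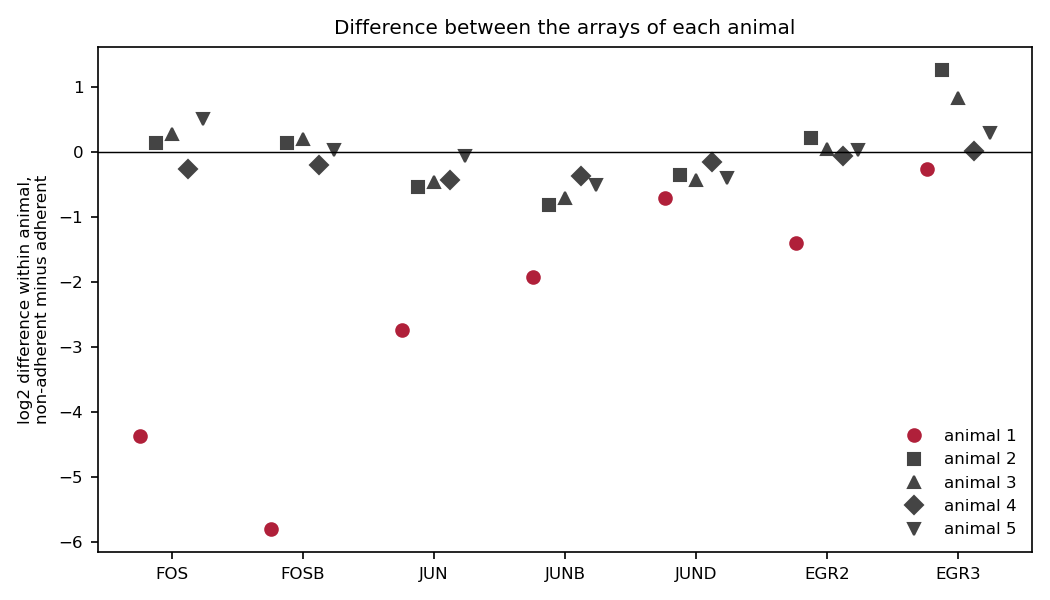
Log2 difference between the 2 arrays of each animal, non-adherent minus adherent (y axis), for each gene (x axis), with animal 1 in red. Animal 1 is the lowest point for every gene, by most for FOSB (-5.81) and FOS (-4.38).

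The high values on adherent 1 extended to other immediate early genes. A value was counted as high on adherent 1 when its distance to the next adherent array exceeded 0.71 of the range of the 5 adherent arrays, which is Dixon's critical value. This held for 5 of the 7 FOS, JUN and EGR genes and for 17 of 39 other immediate early genes, where 4.05% of all genes met it. The value on adherent 1 was low by the same measure for 0 of 7 and 0 of 39, where 3.91% of all genes were. Adherent 1 was the highest of all 10 arrays for 6 of 7 and for 33 of 39, where 19.2% of all genes had this. It exceeded every other array by a log2 of 1 or more for 5 of 7 and 20 of 39, where 2.2% of all genes did. The largest such distances among the other immediate early genes, picked after their values were seen, belonged to the zinc finger factor KLF4 (4.04), the stress sensor GADD45B (3.35), the AP-1 partner ATF3 (3.28) and the nuclear receptor NR4A2 (3.26). The genes were measured on the same arrays and the list was chosen with earlier results known, so the counts describe this array.

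**Figure D4:**
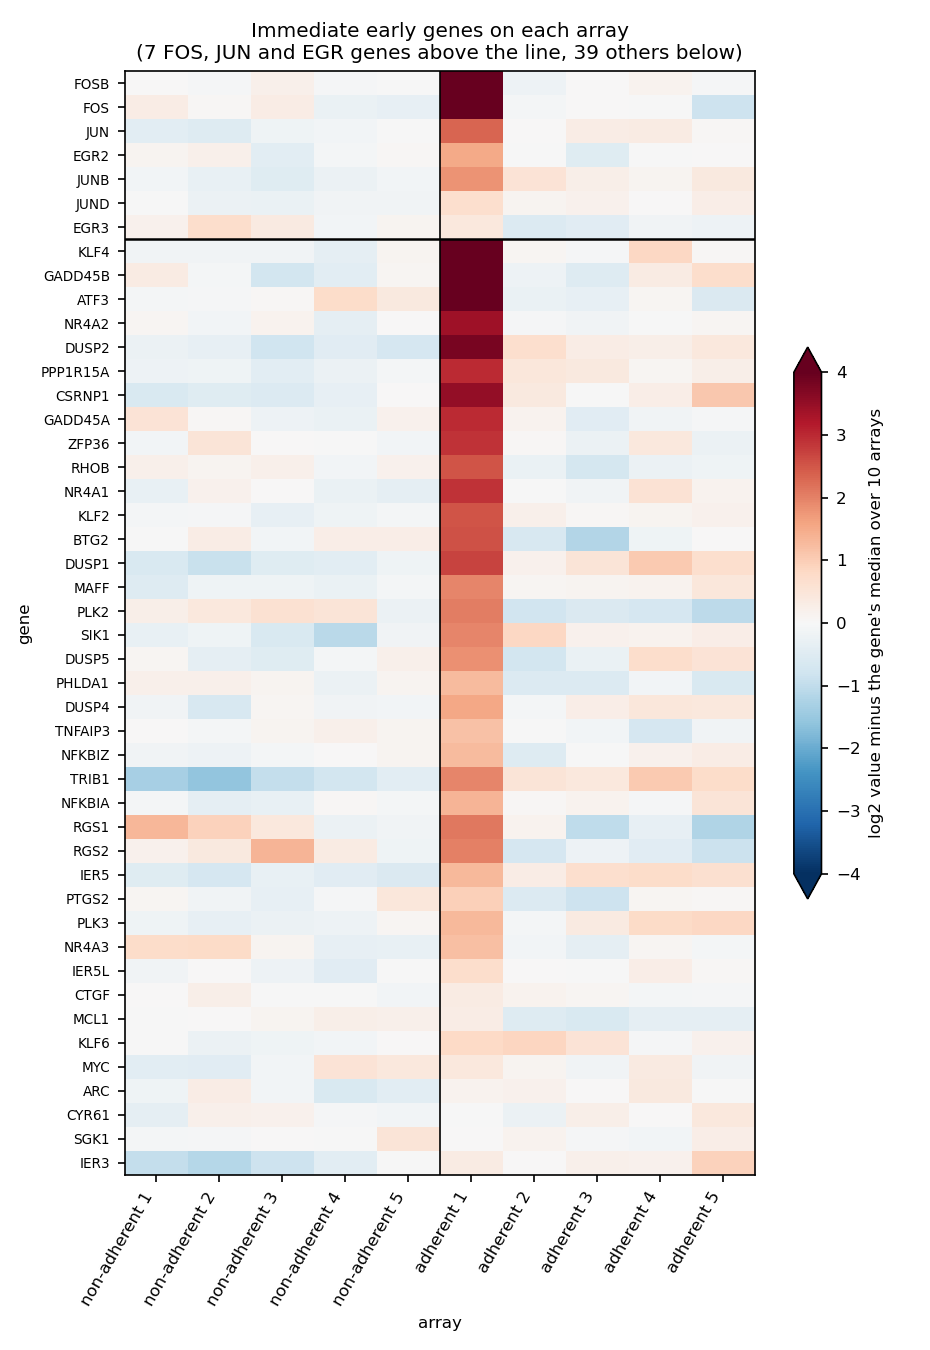
Log2 value minus the median of the gene over 10 arrays (colour, clipped at 4 in both directions) for 7 FOS, JUN and EGR genes and 39 other immediate early genes (rows) on each array (columns). The column of adherent 1 is red for most rows, and FOSB, FOS, KLF4, GADD45B and ATF3 reach the end of the scale.

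Between the groups, 7 of the 39 other immediate early genes were lower in non-adherent cells and 0 higher, where 9.78% and 6.72% of all genes were. Their median log2 difference was -0.52. At an unadjusted p of 0.05 in limma these counts were 14 and 1, where 16.9% and 14.6% of all genes were. Without adherent 1, 11 were lower and 5 higher, with a median of -0.20, where 13% and 9.34% of all genes were lower and higher. The number lower was 3 without non-adherent 1, 4 without non-adherent 2, 3 or 4, and 2, 4 and 3 without animal 3, 4 and 5 in turn. IER5, a regulator of heat shock factor activity, fell by 1.23 ± 0.16 (adjusted p = 0.000747), and TRIB1, a pseudokinase scaffold for protein degradation, fell by 1.93 ± 0.30 (adjusted p = 0.00187, and -1.03 on averaging its probe sets). Both genes had non-overlapping groups, as JUNB and JUND had.

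Other bZIP factors, some of which can pair with FOS or JUN, moved in both directions. Of 25 measured genes, 3 rose and 3 fell, where 6.72% and 9.78% of all genes did. Without adherent 1, 6 rose and 5 fell, where 9.34% and 13% of all genes did. ATF2, a JUN partner and kinase target, rose by 0.69 ± 0.12 (adjusted p = 0.00263), and its relative ATF7 rose by 0.70 ± 0.13 (adjusted p = 0.0041). On averaging the probe sets of each gene ATF2 was higher by 0.35 and still passed, whereas ATF7 was higher by 0.35 and did not (adjusted p = 0.0506). NFE2L1, a regulator of proteasome genes, fell by 1.18 ± 0.11 (-0.57 on averaging its probe sets), and the small MAF protein MAFK fell by 0.69 ± 0.11. On adherent 1, 8 of the 25 were high by Dixon's value, where 4.05% of all genes were. Of these 8, ATF3 and MAFF also stood among the immediate early genes above. Another 2 were low, ATF2 and the stress factor ATF6, where 3.91% of all genes were.

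Among 6 EGR relatives and corepressors, SP3, a factor of GC-rich promoters, rose by 0.76 ± 0.11 (adjusted p = 0.00142) and 0 fell, also at an unadjusted p of 0.05 in limma, and 0 of the 6 were high on adherent 1. Without adherent 1, 2 of the 6 rose. Of 27 serum response factors and upstream kinases, 3 rose and 5 fell, and on adherent 1 0 were high and 1, RPS6KA1, was low by Dixon's value. Without adherent 1, 5 rose and 6 fell, and without animal 3 the number that fell was 3. Over all genes 6.72% rose and 9.78% fell with all arrays, and 9.34% and 13% without adherent 1. At an unadjusted p of 0.05 in limma, 16.9% of all genes fell with all arrays. By Dixon's value 4.05% of all genes were high and 3.91% low on adherent 1. SRF, which binds the promoters of FOS and EGR genes, fell by 0.59 ± 0.093 (adjusted p = 0.00199). ELK3, an ETS partner of SRF, rose by 1.34 ± 0.22 (adjusted p = 0.00229, and 0.58 on averaging its probe sets). The kinase BRAF rose by 0.50 ± 0.099 but did not pass on averaging its probe sets (0.13, adjusted p = 0.338), and the p38 target kinase MAPKAPK3 fell by 0.39 ± 0.080.

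Of 31 genes known as AP-1 or EGR targets, 1 rose and 2 fell, with 2 and 3 without adherent 1. The replicate block gave 2 and 4. Over all genes 6.72% rose and 9.78% fell with all arrays. These shares were 9.34% and 13% without adherent 1, and 7.85% and 10.4% with the replicate block. VEGFA, the endothelial growth factor, fell by 1.65 ± 0.14 (adjusted p = 7.5e-05) and the chemokine CCL4 fell by 0.92 ± 0.22 (adjusted p = 0.0165), a call lost without animal 3 (0.0961) or 5 (0.0526). PLAU, the urokinase protease, rose by 1.29 ± 0.32 (adjusted p = 0.0208). The call of PLAU was lost without non-adherent 3 (0.0517), non-adherent 5 (0.0503) or adherent 5 (0.0516), and without animal 3 (0.0701) or 5 (0.108). On adherent 1, 3 of the 31 were high by Dixon's value, the growth factors EREG and HBEGF and the hyaluronan receptor CD44, named after their values were seen. Low by the same value were also 3 of the 31, the protease MMP9, the chemokine CCL2 and the thioredoxin gene TXN. Over all genes 4.05% were high and 3.91% low on adherent 1 by this value. EREG had log2 values of 3.74, 3.52, 3.98, 4.20 and 4.09 on non-adherent arrays 1 to 5, and 7.32, 3.80, 3.79, 4.18 and 4.10 on adherent arrays 1 to 5.

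Many immediate early transcripts are degraded through AU-rich elements. Of 18 listed factors of mRNA turnover, not all of which act through such elements, 3 rose and 1 fell. Over all genes 6.72% rose and 9.78% fell. Without adherent 1 the counts of the list were the same, where 9.34% and 13% of all genes rose and fell. ZFP36L1, which binds such elements, rose by 0.85 ± 0.18 (adjusted p = 0.00976) and RC3H1 rose by 0.44 ± 0.085 (0.56 for ZFP36L1 and 0.28 for RC3H1 on averaging probe sets, both past the threshold), whereas ZC3H12A, an endonuclease of inflammatory transcripts, fell by 0.83 ± 0.17 (adjusted p = 0.00814). Of 15 heat shock genes, 0 passed in either direction in limma, with and without adherent 1. At an unadjusted p of 0.05 in limma, 0 passed with all arrays, and 1 higher and 0 lower without adherent 1. Of all 13755 genes, 2012 were higher and 2318 lower at that p with all arrays, and 2245 and 2577 without adherent 1. The mean log2 value of the heat shock genes was 8.92 to 9.33 on non-adherent arrays, 9.63 on adherent 1 and 9.07 to 9.19 on the other adherent arrays. On adherent 1, 2 of the 15 were high by Dixon's value, where 4.05% of all genes were.

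Markers of other cells were set beside these results. Of 9 dendritic cell markers, 7 were higher in non-adherent cells, where 6.72% of all genes were. The log2 values of the 9 markers averaged 6.99 to 8.41 on non-adherent arrays, 5.93 on adherent 1 and 5.89 to 6.07 on the other adherent arrays. CCR7 was the 1 high on adherent 1 by Dixon's value, where 4.05% of all genes were. The 8 neutrophil markers averaged 8.24 to 8.41 on non-adherent arrays, 8.76 on adherent 1 and 7.85 to 8.32 on the others, with CSF3R as the 1 high on adherent 1. The 5 B cell and plasma cell markers averaged 5.20 to 5.42, 5.88 and 5.24 to 5.37 in the same order, with CD22 high. The 12 epithelial markers averaged 5.47 to 5.68, 5.89 and 5.53 to 5.74, with CDH1 and SFTPB high. The 13 T and NK cell markers averaged 5.51 to 5.82, 5.59 and 5.48 to 5.70, and 0 were high on adherent 1. For 10 fibroblast and endothelial markers these values were 5.13 to 5.39, 5.27 and 5.06 to 5.22, and for 6 erythroid markers 5.08 to 5.24, 5.28 and 5.13 to 5.28. In limma the epithelial marker EPCAM was lower in non-adherent cells (-1.35 ± 0.32, adjusted p = 0.0162). The fibroblast marker COL1A2 was higher (0.33 ± 0.089, adjusted p = 0.0272). Of the neutrophil, B and plasma cell, T and NK cell and erythroid markers 0 passed. Over all genes 6.72% were higher and 9.78% lower. A mean below the median of all values was found for 1 of 9 dendritic cell markers, 2 of 8 for neutrophils, 2 of 5 for B cells and plasma cells, 5 of 12 for epithelium, 5 of 13 for T and NK cells, 5 of 10 for fibroblasts and endothelium and 3 of 6 for erythroid cells. The part of such cells in the values of FOS, JUN and EGR genes was not tested.

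Likeness was read among named genes with a mean above the median of all values and without locus, clone or similar identifiers. Among these, the genes most like FOS over the 10 arrays by Pearson's r were TPPP3 (0.992), LY75 (0.989) and UNC13D (0.987). Over the 9 arrays without adherent 1 they were SCMH1 (0.916), SLC5A2 (0.907) and TBCK (0.906). For JUNB the closest were NDEL1 (0.99), LMNA (0.99) and ZFAND5 (0.984) over 10 arrays, and PTPRB (0.99), CYTH1 (0.986) and FADS6 (0.977) over 9. Over those 9 arrays r with FOS was 0.815 for TPPP3, 0.736 for LY75 and 0.685 for UNC13D, and r with JUNB was 0.962 for NDEL1, 0.966 for LMNA and 0.936 for ZFAND5. Over all 10 arrays r with FOS was 0.709 for SCMH1, 0.587 for SLC5A2 and -0.298 for TBCK. In the same way r with JUNB was 0.0774 for PTPRB, 0.891 for CYTH1 and 0.544 for FADS6. No gene was among the 3 closest over both 10 and 9 arrays. These values are descriptions over arrays of both cell groups, for which it is not given whether they were normalized together.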

How the data were processed

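The deposited values are log2 values per probe set. RMA and Partek are listed, with no version or order, in the submitters' processing notes. The sources used here do not give whether the 2 groups of arrays were normalized in 1 run, and array medians and controls are given with the results. The number of arrays limits the precision. Of 47845 probe sets, 26426 had 1 gene symbol, 0 several and 21419 none in the platform annotation, which can be old. The highest-mean probe set over 10 arrays stood for each gene, giving 13755 genes.

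Groups and animal numbers came from the sample titles. Non-adherent minus adherent was fitted over all genes with lmFit and eBayes (limma 3.58.1, R 4.3.3). Tests were 2-sided, adjusted by Benjamini-Hochberg, with a threshold of 0.05. Probe sets were fitted together in the same way. The fit was tested on simulated data of 13755 genes, 200 of them changed. It recovered 38.8% of those with a log2 change of 0.5, 83.6% for 1 and 98.5% for 2. The simulated noise was independent, with no pairing by animal and no outlying array, so these rates need not hold for the data. Figures used matplotlib 3.10.9.

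The arrays are paired by animal. For animals 1 to 5 the residuals of both arrays had correlations over genes of 0.116, 0.22, 0.398, 0.364 and 0.394. The replicate block was an alternative. Others left out each animal and array, centred or quantile-normalized the arrays, filtered low levels, used trended and robust variance, array weights, a random animal effect or the mean of probe sets. After the data were seen, the block without animal 1 was added.

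Text genes were the measured members and up to 2 genes per direction past the threshold with the lowest p from each list. To these were added the 3 genes most correlated with FOS and with JUNB, under the filter given with the results. EGR1, also in that correlation rule, was not analysed here. Further genes and cell markers were named after their values were seen. Members and lists were chosen with earlier results of these data known. Genes in 2 lists were ATF3, CREB1, MAFF and ZFP36. Sequences were not used here.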

Additional observations from a re-analysis of the deposited data

Results flagged for a closer look

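The check covered 24 genes, which were the measured members and the list genes chosen by lowest p. Other genes named in the results as high or low on adherent 1 are not counted here. For each of the 24 genes, each group of 5 arrays was checked for an array set apart from its neighbour. The distance had to exceed 0.71 of the range of the group. Over all genes adherent 1 was high by this measure for 4.05% and low for 3.91%. The genes were chosen with earlier results of these data known, so the counts below describe them and are no test. Of 48 groups, 7 had such an array, and in 6 it was adherent 1. On adherent 1 the high values were those of FOS, with a ratio of 0.844, FOSB (0.943), JUN (0.87), JUNB (0.752) and EGR2 (0.749). ATF2 had its low value there (0.82). The remaining one was FOSB on non-adherent 3 (0.728), where the value was 4.98 against 4.71 to 4.78 on the other 4 non-adherent arrays, a range of 0.27 in all. JUND and EGR3 had no such array.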

How the results depend on the processing

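The directions of JUN, JUNB, JUND and EGR3 held under all alternatives. Leaving out an animal or an array moved the log2 difference of FOS between -1.14 and 0.24, FOSB between -1.46 and 0.049, EGR2 between -0.40 and 0.097, JUN between -1.04 and -0.37, JUNB between -0.99 and -0.56, JUND between -0.47 and -0.30 and EGR3 between 0.22 and 0.61. The positive values of FOS, FOSB and EGR2 came without adherent 1 or without animal 1. With the replicate block and without animal 1, added after the data were seen, FOS was 0.17, FOSB 0.049, EGR2 0.058, JUN -0.37 (adjusted p = 0.0383), JUNB -0.60 (0.00454) and EGR3 0.61 (0.0442). With array weights EGR2 was 0.019, JUNB -0.62 and EGR3 0.50. JUNB was -0.86 with the replicate block, the random effect and the filter on low levels, and -0.89 with centred arrays, and passed in each. The replicate block changed no other call of the 7 genes. Over the leave-outs the number of FOS, JUN and EGR genes past the threshold ran from 0 to 1 higher and 0 to 3 lower, and that of all genes from 387 to 1285 higher and 732 to 1782 lower. It was 2 lower with the replicate block, the random effect, centred arrays, the filter and array weights, and 1 higher with array weights. With the replicate block and without animal 1 it was 1 higher and 3 lower, with 1584 of all genes higher. With array weights, 5 of the other bZIP factors, 6 of the serum response factors and kinases and 2 of the other immediate early genes rose. With the mean of probe sets 1 of the serum response factors and kinases rose.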
